A study of Mus musculus with 6 samples.

Results

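The genes described here encode enzymes that write or erase chemical marks on histones and DNA, together with proteins that read those marks or remodel nucleosomes. They were picked by symbol alone: lysine demethylases (Kdm), lysine acetyltransferases (Kat, Crebbp, Ep300) and the Ncoa coactivators, histone deacetylases (Hdac), sirtuins (Sirt), SET-domain methyltransferases (Setd, Ehmt, Suv), arginine methyltransferases (Prmt), Polycomb proteins (Ezh, Suz12, Eed, Bmi1, Cbx), bromodomain proteins (Brd), chromodomain helicases (Chd), DNA methyltransferases (Dnmt) and Tet dioxygenases. The rule took 95 of the 10245 genes in the expression table, and the Y-linked demethylase gene Kdm5d was left out of it.

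Acetylation of histone tails by acetyltransferases generally goes with open chromatin and active transcription, and deacetylases and sirtuins remove it. Methylation of lysines can mark active or silent genes depending on the residue, and Polycomb complexes keep developmental genes silent by methylating H3K27 and by recruiting CBX proteins to that mark. In the adult pancreas acinar cells make and secrete digestive enzymes under the control of PTF1A, the DNA-binding subunit of the PTF1 complex, and duct, islet, stromal, vascular and immune cells make up the rest of the organ.

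The study compared whole pancreata in which Ptf1a had been deleted from adult acinar cells with pancreata of control mice, by RNA sequencing. The 3 controls carried a tamoxifen-inducible Cre recombinase in place of 1 Ptf1a allele together with 1 wild-type allele (Ptf1a CreER/+), and the 3 Ptf1a cKO mice carried the same Cre allele with a loxP-flanked allele (Ptf1a CreER/fl). All 6 mice received tamoxifen by gavage at 0.25 mg/g on 3 days and were killed at day 14. The controls were recorded as 4 months old and the Ptf1a cKO mice as 5 months old, so age and genotype cannot be told apart. The Cre allele is itself a null allele and acts where Ptf1a is expressed, so controls had 1 working copy of Ptf1a in acinar cells, and Ptf1a cKO tissue kept intact alleles in other cells and in acinar cells that escaped recombination. Each group held 1 mouse labelled male and 2 labelled female.

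Values are normalized read counts as deposited. Ptf1a itself stood at 566, 601 and 652 normalized counts in controls 1 to 3 and at 19.8, 70.1 and 10.2 in Ptf1a cKO 1 to 3, a log2 fold change of -4.41 ± 0.49 (SE) with an adjusted p of 3.29e-04 (limma). Of the Ptf1a cKO libraries, Ptf1a cKO 2 kept the most Ptf1a. The sex labels of 2 controls went against sex-linked transcripts. In control 1, labelled male, the X-inactivation transcript Xist stood at 1726 and the Y-linked gene Ddx3y at 1.74, whereas in control 3, labelled female, they stood at 93.6 and 86.2. The female-labelled control 2 (1617 and 5.27), Ptf1a cKO 1 (2485 and 0) and Ptf1a cKO 3 (3530 and 0), and the male-labelled Ptf1a cKO 2 (7.87 and 299), showed levels that matched their labels. Results are therefore also given without controls 1 and 3 and without the 2 libraries that held Y-linked transcripts.

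The tissue also changed in its makeup of transcripts. Of 32 digestive enzyme and secreted acinar genes, 22 fell and 1 rose, and their sum went from 14320000 to 17480000 normalized counts in controls to 2344000 to 5947000 in Ptf1a cKO. Of the 9 ductal markers measured, 6 rose, as did 9 of 12 leukocyte, 11 of 12 fibroblast and stellate and 5 of 11 proliferation markers. Their summed levels were 3995 to 4917 against 25890 to 110400 for ductal, 539 to 891 against 1352 to 3296 for leukocyte, 3123 to 3555 against 6119 to 10760 for fibroblast and 353 to 463 against 454 to 1180 for proliferation markers, so that the sums of proliferation markers overlapped between Ptf1a cKO 1 and control 3. Endothelial sums overlapped (1066 to 1311 against 1074 to 1343), as did endocrine sums (11720 to 43340 against 5981 to 34070). Over all genes, 17.1% rose and 16.8% fell. Some markers that rose, among them Car2 and Cd52, lay below 27.6 normalized counts in every control. Each gene in the table reached that level in some library, so those markers are there only through Ptf1a cKO values, which favors a rise. No marker in the table was at 0 in all 6 libraries. The part of these cell types in the values below was not tested, and in whole tissue fewer cells of a type and less RNA per cell cannot be told apart.

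The promoters of 4 of the largest falls are shown because PTF1 is known to bind a bipartite site made of an E-box (CANNTG) and a TC-box (TGGGAA). Windows of 300 bases, from 250 before to 50 after the annotated start, were taken from RefSeq on GRCm38.p6 and existed for 76 of the 95 genes. Capitals mark E-box and TC-box matches on either strand, and no E-box and TC-box match overlapped in the windows printed. They belong to Kdm1b (chr13:47043249-47043548, + strand), Setd6 (chr8:95715663-95715962, + strand), Hdac11 (chr6:91156565-91156864, + strand) and Kat2a (chr11:100712418-100712717, - strand).
Kdm1b: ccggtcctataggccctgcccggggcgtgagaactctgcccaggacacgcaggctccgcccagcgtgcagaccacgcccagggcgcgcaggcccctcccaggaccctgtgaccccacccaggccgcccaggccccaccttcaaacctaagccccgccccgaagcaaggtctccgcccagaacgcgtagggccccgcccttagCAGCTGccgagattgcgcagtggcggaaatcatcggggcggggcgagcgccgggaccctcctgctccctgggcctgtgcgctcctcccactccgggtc
Setd6: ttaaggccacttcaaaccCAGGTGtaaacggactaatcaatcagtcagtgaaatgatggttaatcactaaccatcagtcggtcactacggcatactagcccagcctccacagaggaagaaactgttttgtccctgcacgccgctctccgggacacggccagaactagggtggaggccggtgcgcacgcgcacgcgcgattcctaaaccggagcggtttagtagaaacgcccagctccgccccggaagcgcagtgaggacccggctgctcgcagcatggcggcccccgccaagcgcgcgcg
Hdac11: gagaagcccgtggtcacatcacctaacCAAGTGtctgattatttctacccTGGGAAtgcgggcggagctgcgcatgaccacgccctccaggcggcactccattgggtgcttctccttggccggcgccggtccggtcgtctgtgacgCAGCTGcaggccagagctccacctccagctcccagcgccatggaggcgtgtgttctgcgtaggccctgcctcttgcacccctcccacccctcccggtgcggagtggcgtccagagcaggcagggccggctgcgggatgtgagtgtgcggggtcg
Kat2a: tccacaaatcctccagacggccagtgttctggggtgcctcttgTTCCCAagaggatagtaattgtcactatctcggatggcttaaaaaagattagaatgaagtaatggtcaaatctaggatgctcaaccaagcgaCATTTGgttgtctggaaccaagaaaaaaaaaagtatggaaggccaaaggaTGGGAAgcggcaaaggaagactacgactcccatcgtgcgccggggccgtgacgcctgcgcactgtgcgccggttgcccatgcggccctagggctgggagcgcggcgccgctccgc
The Hdac11 window held 2 E-boxes and 1 TC-box, the Kat2a window 1 E-box and 2 TC-boxes, and the windows of Kdm1b and Setd6 an E-box each and no TC-box. Such letters are common: an E-box was present in 43 of the 76 windows (56.6%) against 72.1% of all 27025 windows in the table, a TC-box in 20 (26.3%) against 25.5%, and both in 15 (19.7%) against 18.9%. Both motifs were present, at any distance from each other, in 2 of 9 windows of genes that fell and in 1 of 7 of genes that rose, the latter being Chd1l. The spacing of a bipartite site was not examined. The windows of these chromatin genes were rich in CpG, with a median of 22 CpG dinucleotides against 7 over all windows. All 27025 windows take in genes outside the 10245 of the expression table, so these comparisons set unlike gene sets side by side. A match is a description of the letters and does not show binding.

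Loss of Ptf1a was accompanied by changes in 23 of the 95 genes, 11 of which rose and 12 of which fell (limma, adjusted p under 0.05). That is 24.2% of them, beside 33.9% of all genes tested. Rises made up 17.1% and falls 16.8% of all genes. Chd3, a helicase gene, had the largest rise, to 2.99 times the control level, and the demethylase gene Kdm1b the largest fall, to 0.382 of it. Past 1.5-fold there were 4 rises and 5 falls (12.8% and 11.4% of all genes), and past 2-fold 1 rise and 2 falls (6.35% and 4.69%). Control and Ptf1a cKO values did not overlap in 37 genes (38.9%, beside 50.8% of all genes). The median change was 0.04 on the log2 scale, the same as the median of all genes at 2 decimals, and the median size of change regardless of sign was 0.25 beside 0.33 for all genes.

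Those directions are relative to the deposited scaling, in which the median gene was close to equal between groups. The 95 genes summed to 21235 to 22333 normalized counts per control library and 20887 to 22502 per Ptf1a cKO library, whereas as a share of all gene counts they rose from 0.104% to 0.118% in controls to 0.237% to 0.407% in Ptf1a cKO. With every library scaled to the same total, the median of all genes shifted to 1.49 on the log2 scale, 98.7% of called genes were higher instead of 50.4%, and all 12 falls turned to values above 0. Relative to that shifted median, the 12 falls lay between -1.40 and -0.42 and the 11 rises between 0.44 and 1.55. With the digestive enzymes left out of the total, 75.4% of called genes were higher, and 25 of the 95 genes rose and 4 fell. Without control 2 or without Ptf1a cKO 1 the number of falls dropped to 6, and without both controls whose sex labels were in doubt there were 2 rises and 2 falls, the remaining control being assumed to vary like the Ptf1a cKO mice.

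**Figure D1:**
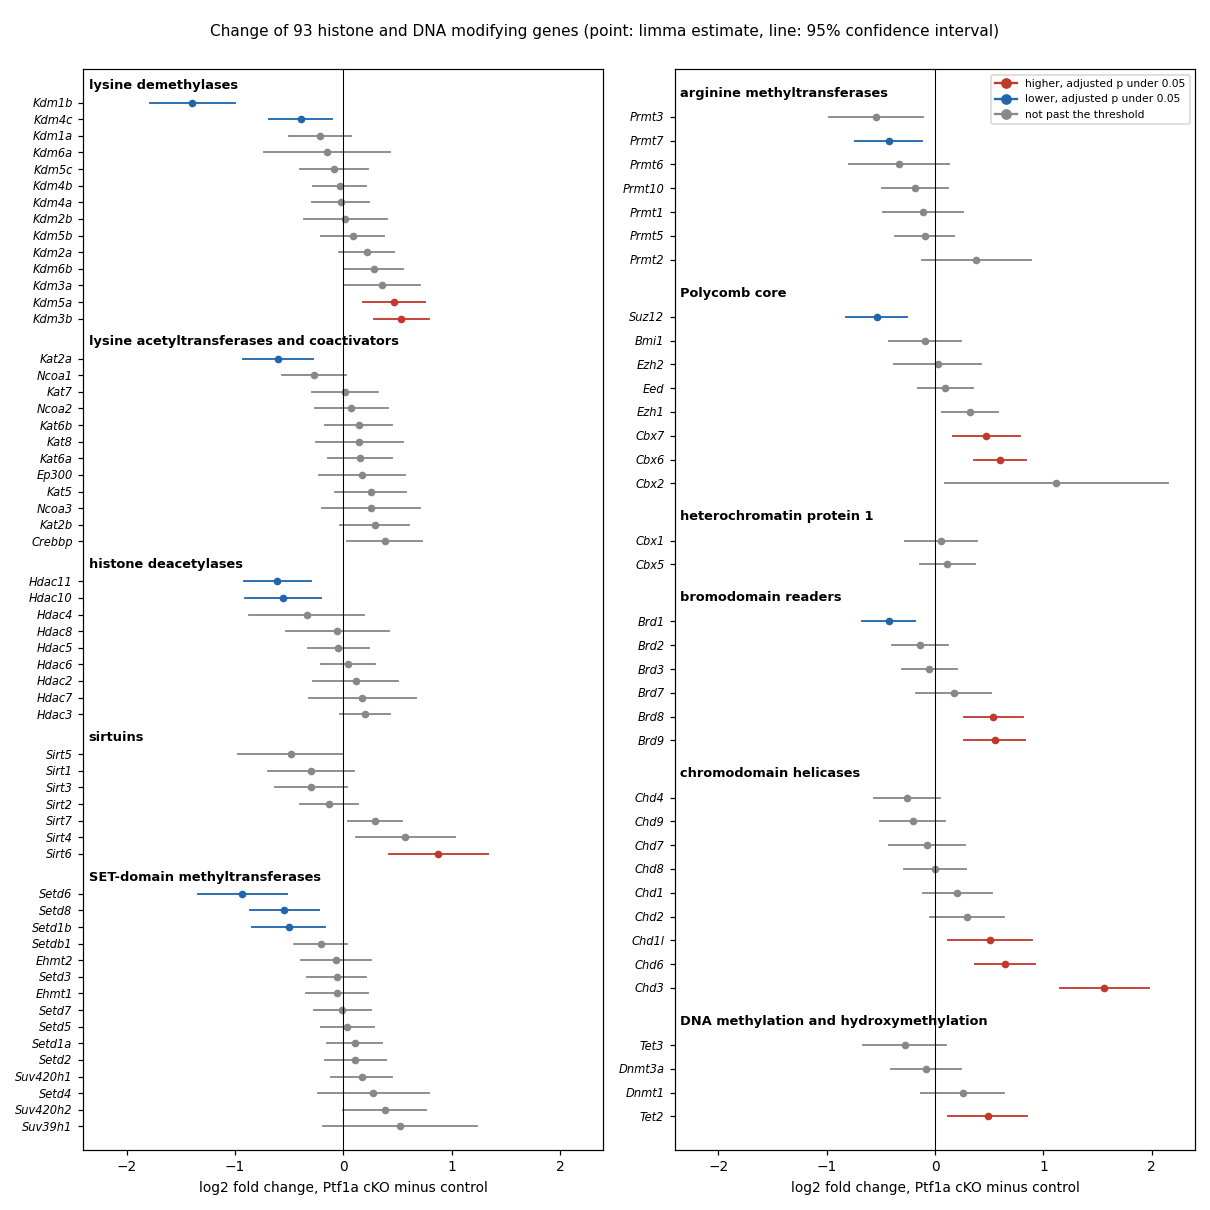
Log2 fold change (Ptf1a cKO minus control, horizontal axis) of 93 of the 95 genes, grouped by role, with 3 libraries in each group. Points are limma estimates and lines 95% confidence intervals, red and blue marking the 11 rises and the 11 falls shown past an adjusted p of 0.05. Chd3 lies farthest to the right and Kdm1b farthest to the left, and the falls turn to values above 0 when all libraries are scaled to the same total.

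**Figure D2:**
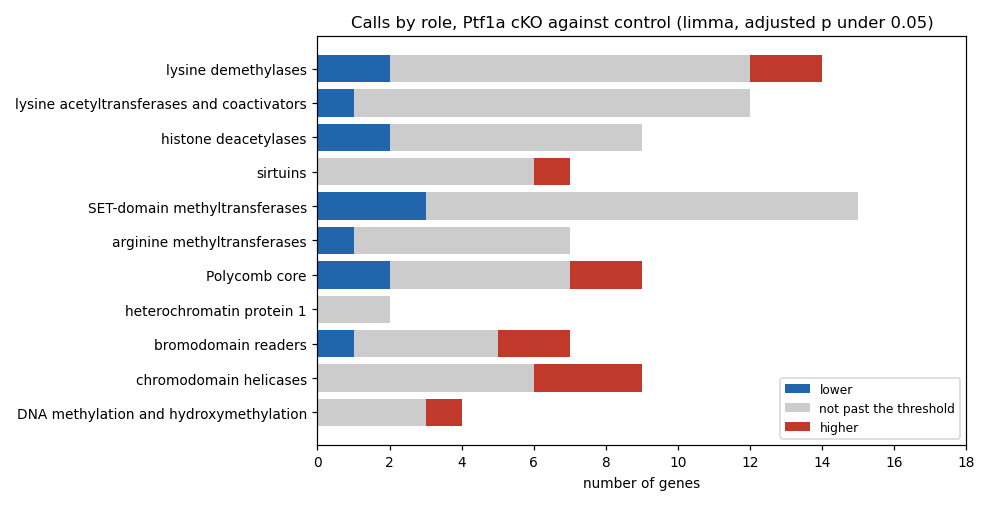
Number of genes (horizontal axis) in each role that rose (red), fell (blue) or did not pass the threshold (grey) in Ptf1a cKO against control on the deposited scaling. Of the chromodomain helicases, grouped by a Chd symbol with Chd1l included, 3 of 9 changed (33.3%), all rises. Of the SET-domain methyltransferases 3 of 15 changed (20%), all falls. Beside these, 33.9% of all genes changed. With genes short of the threshold included, 5 helicases lay above 0 and 4 below, and 7 SET-domain genes above and 8 below. The falls turn to values above 0 when libraries are scaled to the same total.

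Among the lysine demethylases, which remove methyl groups from histone tails, 2 of 14 rose and 2 fell (28.6%, beside 33.9% of all genes). The falls are the ones that turn when totals are made equal. Kdm1b, the flavin-dependent H3K4 demethylase known for its role in oocyte imprinting, stood at 646, 618 and 512 normalized counts in controls and at 224, 278 and 176 in Ptf1a cKO. Every Ptf1a cKO library was below every control for Kdm1b. Its log2 fold change was -1.39 ± 0.17 (SE, n = 3 in each group) with an adjusted p of 5.31e-04 (limma), the largest fall of the 95 genes. Exons of Kdm1b overlap those of Dek on the opposite strand by 498 bases, and whether reads were counted by strand is not given in the sources used here. Its relative Kdm1a, a subunit of the CoREST corepressor complex, was at 212, 199 and 229 against 199, 160 and 192 and did not pass the test (log2 fold change -0.22, adjusted p = 0.21, limma).

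Kdm4c, which demethylates H3K9, was at 142, 178 and 180 in controls and 127, 125 and 124 in Ptf1a cKO, so that the Ptf1a cKO libraries lay within a narrow band under the controls. It fell by 0.39 on the log2 scale (SE 0.13, adjusted p = 0.0403, limma), and the call was kept only without control 1, with adjusted p up to 0.133 when another library was left out. Kdm3b, an H3K9 demethylase, rose from 229, 226 and 254 to 319, 342 and 370, a log2 fold change of 0.53 ± 0.11 (adjusted p = 0.00678, limma). Kdm5a, an H3K4 demethylase first found as a partner of the retinoblastoma protein, rose from 150, 143 and 136 to 193, 179 and 229, a log2 fold change of 0.47 ± 0.13 (adjusted p = 0.0198, limma). For both, all Ptf1a cKO values exceeded all control values, and the call of Kdm5a was lost without control 2 or Ptf1a cKO 3 (adjusted p up to 0.0722). Kdm6b, an H3K27 demethylase, was at 218, 208 and 200 against 245, 232 and 289, which did not overlap but missed the threshold (log2 fold change 0.28, adjusted p = 0.0989, limma).

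The X-linked demethylase genes Kdm6a and Kdm5c, known to escape X inactivation, were lowest in each group in the library that held Y-linked transcripts. Kdm6a, the other H3K27 demethylase, stood at 228, 244 and 199 in controls and at 226, 125 and 284 in Ptf1a cKO, with the low values in control 3 and Ptf1a cKO 2. Kdm5c, an H3K4 demethylase, stood at 677, 620 and 536 and at 538, 520 and 669, again lowest in those 2 libraries. Neither passed the test between genotypes, with log2 fold changes of -0.15 (95% confidence interval -0.73 to 0.43) for Kdm6a and -0.09 (-0.40 to 0.23) for Kdm5c. The interval of Kdm6a was the widest among the demethylases. The other X-linked genes of the group, Hdac6, Hdac8 and Suv39h1, did not pass the test either.

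**Figure D3:**
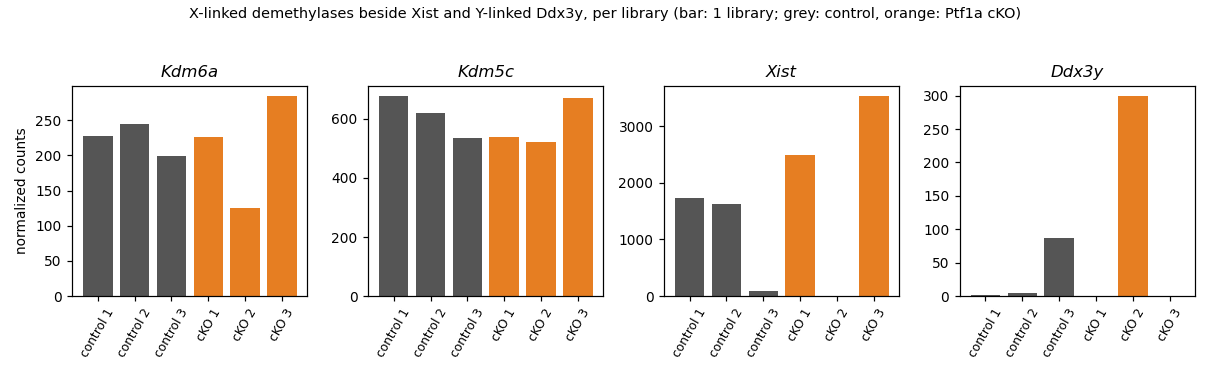
Normalized counts (vertical axes, each from 0) of Kdm6a, Kdm5c, Xist and Ddx3y in each library, 1 bar per library, grey for control and orange for Ptf1a cKO. Control 3 and Ptf1a cKO 2, the libraries with Ddx3y at 86.2 and 299, have the lowest Kdm6a and Kdm5c of their groups.

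Of the 12 lysine acetyltransferases and coactivators, Kat2a alone changed on the deposited scaling (8.33%, beside 33.9% of all genes). It fell from 389, 377 and 301 normalized counts to 219, 268 and 212. Kat2a, also known as GCN5, is the catalytic subunit of SAGA-type complexes. All Ptf1a cKO libraries were below the lowest control, with a log2 fold change of -0.60 ± 0.14 (SE) and an adjusted p of 0.0115 (limma), which became 0.0515 without control 1 and a log2 fold change of 0.88 with equal totals. Its paralog Kat2b went the other way in value, at 346, 375 and 278 against 455, 376 and 389, without passing the test (log2 fold change 0.29, adjusted p = 0.14, limma). Crebbp, a coactivator acetyltransferase, was at 110, 131 and 128 against 146, 142 and 200, and its paralog Ep300 was at 224, 254 and 314 against 265, 261 and 373. Crebbp values did not overlap between groups and Ep300 values did, and neither passed (adjusted p = 0.0869 and 0.47, limma). The other members, among them Kat5 of the TIP60 complex and the nuclear receptor coactivators Ncoa1 to Ncoa3, had log2 fold changes between -0.27 and 0.26.

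Of the 9 zinc-dependent histone deacetylases 2 fell on the deposited scaling (22.2% changed, beside 33.9% of all genes). Neither kept that sign with equal totals. Hdac11, the only class IV enzyme, was at 768, 787 and 597 in controls and 481, 496 and 423 in Ptf1a cKO. Per kilobase of exon it had the highest mean control level of the 95 genes, 270 normalized counts, and it fell to 176 per kilobase. The groups did not overlap, and the log2 fold change was -0.61 ± 0.14 (SE, adjusted p = 0.00926, limma). Exons of Hdac11 overlap those of Gm44002 on the opposite strand by 690 bases. Hdac10, known as a polyamine deacetylase, was at 295, 305 and 209 against 183, 188 and 168, a log2 fold change of -0.56 ± 0.15 (adjusted p = 0.0223, limma). Control 3 was the lowest control for both genes, and the Hdac10 call was kept only without control 3 or without Ptf1a cKO 2, the adjusted p reaching 0.0865 otherwise.

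The other 7 deacetylases did not pass the threshold. Hdac2, a subunit of the Sin3, NuRD and CoREST complexes, was at 248, 264 and 163 against 242, 245 and 229 (log2 fold change 0.11, 95% confidence interval -0.28 to 0.50). Hdac3, a class I deacetylase of nuclear corepressor complexes, was at 279, 294 and 279 against 335, 324 and 323, which did not overlap but gave an adjusted p of 0.15 (limma). Hdac4, Hdac5, Hdac6, Hdac7 and Hdac8 had log2 fold changes between -0.34 and 0.18.

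Sirtuins are NAD-dependent deacylases, and of the 7 measured only Sirt6 changed (14.3%, beside 33.9% of all genes). Sirt6, a nuclear enzyme that acts on H3K9 acetylation and in DNA repair, rose from 35.8, 34.9 and 25.3 normalized counts to 51.9, 65.5 and 66.6. All Ptf1a cKO libraries exceeded all controls, with a log2 fold change of 0.88 ± 0.20 (SE, 1.92-fold, adjusted p = 0.0103, limma). The mitochondrial Sirt4 (40.4, 28.2 and 42.2 against 58.9, 59.7 and 49.2) and the nucleolar Sirt7 (182, 180 and 162 against 210, 207 and 228) also had separate groups, with adjusted p of 0.0558 and 0.0669 (limma). Another mitochondrial member, Sirt5, had separate groups in the opposite direction, at 57.8, 51.3 and 46.9 against 41.5, 41.9 and 26.8 (log2 fold change -0.48, adjusted p = 0.11, limma). Sirt1, the founding nuclear member, was at 107, 110 and 156 against 94.2, 87.8 and 116, a log2 fold change of -0.30 that did not pass (adjusted p = 0.21, limma).

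SET-domain enzymes transfer methyl groups to lysines. Of the 15, 3 changed (20%, beside 33.9% of all genes). All 3 fell on the deposited scaling and turned above 0 with equal totals. Setd6, which is known to methylate the RelA subunit of NF-kappaB, was at 145, 127 and 172 in controls and 76.8, 93.1 and 59.9 in Ptf1a cKO. The groups did not overlap, and the log2 fold change was -0.93 ± 0.18 (SE, adjusted p = 0.00455, limma). Setd8, the H4K20 monomethyltransferase now named Kmt5a, was at 369, 460 and 443 against 257, 338 and 276, a log2 fold change of -0.54 ± 0.14 (adjusted p = 0.0169, limma). Setd1b, the catalytic subunit of a COMPASS complex that methylates H3K4, was at 396, 398 and 489 against 261, 362 and 283, a log2 fold change of -0.50 ± 0.15 (adjusted p = 0.0293, limma). Groups were separate for both, by a small margin between control and Ptf1a cKO 2. The Setd8 call was lost without control 2 or Ptf1a cKO 1 (adjusted p up to 0.0692), and that of Setd1b was kept only without Ptf1a cKO 2 (up to 0.0981).

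The SET-domain enzymes of silent chromatin did not pass the test. Ehmt2 (G9a), which dimethylates H3K9, was the highest of them per kilobase (164 normalized counts on average in controls) and stood at 764, 696 and 564 against 583, 715 and 620. Its partner Ehmt1 had a log2 fold change of -0.06, Setdb1 one of -0.21, and the H4K20 enzymes Suv420h1 and Suv420h2 ones of 0.17 and 0.38. Suv39h1, which trimethylates H3K9, was low and scattered at 20.0, 22.3 and 45.5 against 33.1, 50.4 and 41.0. Its 3 lowest values were those of controls 1 and 2 and Ptf1a cKO 1, and it did not pass the test (log2 fold change 0.52, adjusted p = 0.22, limma).

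Of the 7 arginine methyltransferases, only Prmt7 changed (14.3%, beside 33.9% of all genes). It fell on the deposited scaling (0.43 lower on the log2 scale, but 1.04 higher with equal totals). Prmt7, which monomethylates arginine, was at 185, 158 and 136 in controls and 109, 124 and 118 in Ptf1a cKO, with an SE of 0.14 and an adjusted p of 0.0398 (limma). The call was kept only without control 3 or without Ptf1a cKO 2, the adjusted p reaching 0.137 otherwise, and its exons overlap those of Smpd3 on the opposite strand by 247 bases. Prmt3, which methylates a ribosomal protein, was at 95.1, 126 and 80.4 against 60.5, 80.8 and 60.5, overlapping between control 3 and Ptf1a cKO 2 (adjusted p = 0.0537, limma). The main enzymes of asymmetric and symmetric dimethylation, Prmt1 and Prmt5, had log2 fold changes of -0.11 (95% confidence interval -0.48 to 0.26) and -0.10 (-0.37 to 0.17).

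Of the 9 Polycomb genes 2 rose and 2 fell on the deposited scaling (44.4%, beside 33.9% of all genes). The falls turned above 0 with equal totals. Cbx6 and Cbx7, readers of methylated histone H3 that sit in Polycomb repressive complex 1, were the genes that rose. Cbx6 was at 177, 177 and 179 against 278, 252 and 282, a log2 fold change of 0.60 ± 0.11 (SE, adjusted p = 0.00305, limma). Its 3 controls were nearly identical and far below the lowest Ptf1a cKO library. Cbx7 was at 195, 175 and 145 against 258, 236 and 220, a log2 fold change of 0.47 ± 0.14 (adjusted p = 0.0267, limma), and lost its call without control 2, control 3 or Ptf1a cKO 1 (adjusted p up to 0.088). Cbx2 was the lowest of the 95 genes per kilobase in controls, at 15.1, 20.7 and 4.83 normalized counts against 23.0, 28.2 and 41.7, and its log2 fold change of 1.12 had a wide interval (0.09 to 2.15, adjusted p = 0.0872, limma). Every Cbx2 control lay below 27.6 normalized counts, a level that each gene in the table reached in some library. Cbx2 is thus in the table only through its Ptf1a cKO values, which favors a rise. Exons of Cbx6 overlap those of Npcd on the same strand by 563 bases.

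In Polycomb repressive complex 2, which methylates H3K27, the scaffold subunit Suz12 fell on the deposited scaling while its partners did not pass the test. Suz12 was at 238, 241 and 295 in controls and 182, 164 and 181 in Ptf1a cKO, a log2 fold change of -0.54 ± 0.12 (SE, adjusted p = 0.0103, limma) that became 0.94 with equal totals. The catalytic subunit Ezh2 was at 43.0, 44.3 and 55.7 against 48.6, 52.8 and 43.6, with a 95% confidence interval of -0.38 to 0.43 on the log2 scale. Eed, which binds the methylated lysine, was at 105, 107 and 117 against 116, 116 and 121, with an interval of -0.16 to 0.35. The alternative catalytic subunit Ezh1, which per kilobase stood at 2.35 ± 0.34 times the level of Ezh2 in controls (SD, n = 3), was at 251, 226 and 244 against 328, 273 and 305, with separate groups and an adjusted p of 0.0562 (limma). Bmi1, a RING-finger partner of repressive complex 1, was at 151, 163 and 126 against 145, 115 and 151 (log2 fold change -0.09). The heterochromatin protein 1 genes Cbx1 and Cbx5, which bind methylated H3K9, had log2 fold changes of 0.06 and 0.11.

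**Figure D4:**
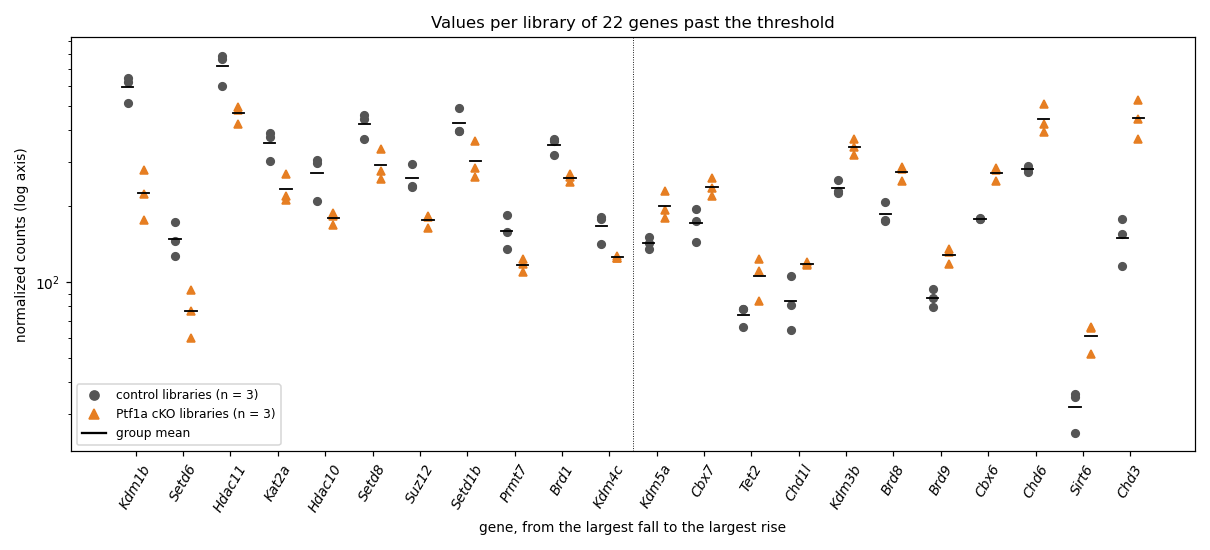
Normalized counts (vertical log axis) in each library of 22 genes that passed the threshold, ordered from the largest fall (Kdm1b) to the largest rise (Chd3). Grey circles are the 3 controls, orange triangles the 3 Ptf1a cKO libraries and bars the group means, and the dotted line parts falls from rises. In none of the 22 genes do the groups overlap; with equal totals the falls turn to values above 0.

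Bromodomains bind acetylated lysine. Among the 7 BRD genes 2 rose and Brd1 fell on the deposited scaling (42.9%, beside 33.9% of all genes). With equal totals Brd1 was 1.05 above control on the log2 scale. Brd8, a subunit of the TIP60 acetyltransferase complex, rose from 175, 208 and 177 to 286, 250 and 280, a log2 fold change of 0.54 ± 0.12 (SE, adjusted p = 0.00873, limma). Brd9, a subunit of a noncanonical SWI/SNF complex, rose from 93.7, 86.2 and 79.7 to 131, 118 and 135, a log2 fold change of 0.55 ± 0.12 (adjusted p = 0.00971, limma). Both had separate groups and were called with any library left out. Brd1, a scaffold of the HBO1 acetyltransferase complex, was at 320, 361 and 369 against 249, 267 and 260, a fall of 0.43 on the log2 scale (adjusted p = 0.0159, limma) that was lost without control 2 or Ptf1a cKO 1 (up to 0.0626). Brd2 and Brd3, BET proteins that link acetylated chromatin to transcription elongation, did not pass the test. Brd2, next after Hdac11 in control level per kilobase, was at 1006, 1035 and 1193 against 1016, 948 and 970 (log2 fold change -0.14, 95% confidence interval -0.40 to 0.12), and Brd3 was at 372, 393 and 322 against 344, 355 and 345 (-0.05, -0.31 to 0.20).

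Chromodomain helicases slide or evict nucleosomes. Of the 9 genes grouped here by a Chd symbol, Chd1l included, 3 changed (33.3%, beside 33.9% of all genes), all of them rises. Chd3, an ATPase of the NuRD deacetylase complex, was at 155, 116 and 178 in controls and 368, 444 and 527 in Ptf1a cKO. The lowest Ptf1a cKO library was above the highest control, and the log2 fold change of 1.56 ± 0.18 (SE, adjusted p = 4.27e-04, limma) was the largest rise of the group. Chd6 was at 280, 287 and 272 against 423, 393 and 508, a log2 fold change of 0.64 ± 0.12 (adjusted p = 0.00428, limma). Chd1l, a remodeler activated by poly(ADP-ribose), was at 81.2, 106 and 64.6 against 118, 117 and 120, a log2 fold change of 0.51 ± 0.17 (adjusted p = 0.0478, limma) that was kept only without control 2 and otherwise gave adjusted p up to 0.115. Chd4, the main NuRD ATPase, was at 991, 1058 and 823 against 708, 874 and 811 and did not pass (log2 fold change -0.26, adjusted p = 0.17, limma). Chd1, Chd2, Chd7, Chd8 and Chd9 had log2 fold changes between -0.21 and 0.30.

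Of the 4 genes of DNA methylation and its removal, Tet2 alone changed and rose (25%, beside 33.9% of all genes). Tet2, a dioxygenase that oxidizes methylcytosine, went from 66.2, 77.9 and 78.2 to 111, 84.4 and 122.9, a log2 fold change of 0.48 ± 0.16 (SE, adjusted p = 0.0467, limma). Ptf1a cKO 2 lay close to the controls, and the call was kept only without that library, with adjusted p up to 0.16 otherwise. Its relative Tet3 was at 308, 266 and 266 against 178, 237 and 285 (log2 fold change -0.28, adjusted p = 0.23, limma). The maintenance methyltransferase gene Dnmt1 was at 109, 81.9 and 113 against 99.7, 127 and 137, and the de novo enzyme gene Dnmt3a at 188, 215 and 235 against 190, 178 and 236. Both overlapped widely, with log2 fold changes of 0.25 (95% confidence interval -0.13 to 0.64) and -0.08 (-0.40 to 0.24).

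Ratios between relatives within a library do not depend on how libraries were scaled, and they were formed from counts per kilobase of exon for pairs chosen with the values known, so no test was run. Chd3 stood at 0.145, 0.101 and 0.200 of Chd4 in controls and at 0.481, 0.470 and 0.601 in Ptf1a cKO. The lowest ratio in Ptf1a cKO was more than any in controls. Kdm1b exceeded Kdm1a in every control (1.88, 1.91 and 1.37) and in Ptf1a cKO 2 only among the Ptf1a cKO libraries (0.692, 1.07 and 0.563). Kat2a to Kat2b went from a mean of 1.64 ± 0.09 (SD, n = 3) to 0.89 ± 0.18, Suz12 to Eed from 1.11 ± 0.07 to 0.71 ± 0.04, Setd1b to Setd1a from 1.30 ± 0.08 to 0.85 ± 0.11 and Tet2 to Tet3 from 0.34 ± 0.06 to 0.60 ± 0.17. These did not overlap between groups, whereas the ratios of Kdm3b to Kdm3a, Cbx6 to Cbx7, Ezh1 to Ezh2 and Brd9 to Brd7 did. Of the 6612 exon bases of Setd1a, 3552 overlap exons of Gm49388 on the same strand, so the ratio of Setd1b to Setd1a is uncertain.

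**Figure D5:**
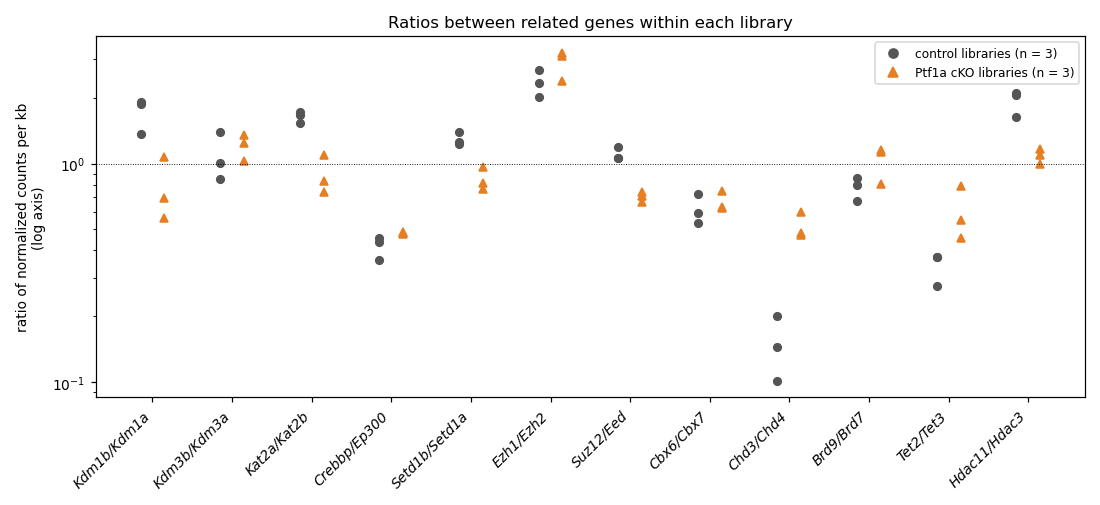
Ratio of normalized counts per kilobase between related genes within each library (vertical log axis) for 12 pairs, grey circles for the 3 controls and orange triangles for the 3 Ptf1a cKO libraries, with the dotted line at equal levels. Chd3 to Chd4 is higher, and Kat2a to Kat2b and Suz12 to Eed lower, in every Ptf1a cKO library than in any control.

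Partner genes of these enzymes were counted from 7 lists of complex subunits and related enzymes. Of 106 symbols 92 were in the table, and 8 rose and 10 fell (19.6%, beside 33.9% of all genes), falling to 7 calls without Ptf1a cKO 3, 9 without Ptf1a cKO 1 and 11 without control 1. In each of the 7 lists the share that changed lay between 10% and 31.6%, below that of all genes. Those named next are among the 2 in each list with the largest change past the threshold, and each fall named turned above 0 with equal totals (0.52 to 1.00 on the log2 scale). The list of MLL and COMPASS genes held 1 rise and 1 fall among 11, and the other 9 genes did not pass the test. The CpG-binding COMPASS subunit Cxxc1 was at 1061, 1095 and 947 against 602, 687 and 527 (log2 fold change -0.77, adjusted p = 0.00236, limma). Mll5 was at 213, 255 and 262 against 367, 390 and 467 (0.74, adjusted p = 0.00345, limma), and its exons overlap those of Srpk2 on the opposite strand by 972 bases. Among 5 other demethylase genes Jmjd6, a lysyl hydroxylase, fell from 210, 211 and 218 to 116, 125 and 108 (-0.86, adjusted p = 6.57e-04, limma). Smyd2, a lysine methyltransferase, was the only 1 of 10 other methyltransferases that changed, from 229, 262 and 258 to 155, 176 and 152 (-0.62, adjusted p = 0.00389, limma).

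Of 17 Polycomb partner genes, Jarid2, a cofactor of repressive complex 2, rose from 93.7, 93.0 and 70.1 to 107, 113 and 141 (log2 fold change 0.48, adjusted p = 0.0475, limma) and Yaf2, of repressive complex 1, fell from 80.1, 95.3 and 89.3 to 61.8, 67.8 and 63.3 (-0.43, adjusted p = 0.0334). Jarid2 lost its call whichever library was left out (adjusted p up to 0.162), and Yaf2 kept it only without control 1 or Ptf1a cKO 2 (up to 0.119). In the deacetylase complexes 1 of 18 rose and 2 fell, among them the CoREST gene Rcor3 by 0.58 on the log2 scale. Rcor3 was called only without Ptf1a cKO 2 (adjusted p up to 0.152 otherwise). In the acetyltransferase complexes 3 of 19 rose and 3 fell. Trrap, the scaffold that TIP60 and SAGA share, rose from 232, 209 and 252 to 375, 379 and 428 (0.77, adjusted p = 0.00156, limma). Morf4l1 rose from 18.1, 7.24 and 3.54 to 39.4, 27.8 and 34.3, but it is known to have near-identical copies elsewhere in the genome and its low counts are uncertain, the call being kept only without control 1 or Ptf1a cKO 2 (adjusted p up to 0.0852). Every Morf4l1 control lay below 27.6 normalized counts, a level that each gene in the table reached in some library. Morf4l1 is thus in the table only through its Ptf1a cKO values, which favors a rise. Of 12 genes of methyl-CpG binding and demethylation 2 rose and 1 fell. Idh2, a mitochondrial enzyme that makes the alpha-ketoglutarate used by TET and JmjC enzymes, fell from 1251, 1371 and 1059 to 619, 792 and 486 (-0.97, adjusted p = 0.00385, limma), and Mbd1, a methyl-CpG binding repressor, rose from 154, 157 and 191 to 228, 207 and 253 (0.45, adjusted p = 0.0277), the latter call being kept only without control 3 or Ptf1a cKO 2 (up to 0.0981).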

How the data were processed

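Whole-pancreas RNA of 3 control and 3 Ptf1a cKO mice was sequenced by the authors as single-end reads. The submitters' processing notes list TopHat2 2.0.4, Bowtie 0.12.7.0, SAMtools 0.1.18.0, HTSeq 0.6.0 and the mm9 genome. The authors deposited a single table whose unit is a signal, normalized read counts per gene symbol. The paper's methods name edgeR with TMM scaling for its own tests; whether the deposited values carry that scaling, and which genes with low values were removed beforehand, is not given in the sources used here; every gene in the table reached at least 27.6 normalized counts in some library. The paper's methods state the aligned reads of each library, of similar number in both groups, but whole reads per gene could not be recovered from the scaled values, so no counting interval is given and no count model was run. A further 3 entries without a gene (75.7% to 82.6% of a library) were left out.

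Values were divided by 13.6393, 1 factor for all 6 libraries, and log2(value + 0.25) was taken, the pseudocount being worth 3.41 normalized counts. Fold changes on this scale understate those of low genes. No gene was removed by the filter on the mean. The groups were compared across all 10245 genes with limma 3.58.1 in R 4.3.3 (mean-variance trend, no covariate, two-sided, Benjamini-Hochberg), and a gene was called at an adjusted p under 0.05. The fit was also run on simulated data with independent normal noise, which could not test the scaling between libraries. Python 3.11.15 with pandas 2.3.3 and matplotlib 3.10.9 served for annotation and plots. Nothing in the labels says more of the replicates than that they are separate mice.

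The members and lists were chosen with earlier results of these data known. Genes named were the 12 largest rises and falls past the threshold with separate groups, the member with the smallest p in each role, a fixed set of well-known enzymes and, of the partner genes, the 2 largest changes past the threshold in each list; further members are given for comparison and were picked with their values known. Exon lengths were found for 95 of 95 genes in GENCODE M21 (GRCm38), 91 by symbol and 4 by an older symbol, and promoters come from RefSeq. The table was made on mm9, whereas the positions printed are those of promoter windows on GRCm38.p6, and no mm9 position is printed. Of the symbols in the role lists, Hdac1, Hdac9, Dnmt3b, Tet1, Cbx3, Cbx8 and others were not analysed here. Values of a few genes are not reported here, though they remain in the counts. Samples sharing a replicate number were checked for shared deviations from their group means (correlations 0.0391, 0.134 and 0.144), which did not show that the numbers pair the mice.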

Additional observations from a re-analysis of the deposited data

How the results depend on the processing

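The directions of the 23 calls among the 95 genes were kept in every alternative in which all 95 were tested, apart from scaling to the same total. Under that scaling 92 genes were higher and 0 lower (11 and 12 as reported; limma), the median change was 1.5045 beside 1.49 for all genes, 91 partner genes were called instead of 18, and log2 fold changes of the falls named became 0.0893 for Kdm1b, 0.52 for Setd6, 0.88 for Hdac11, 0.88 for Kat2a, 0.92 for Hdac10, 0.94 for Setd8, 0.94 for Suz12, 0.98 for Setd1b, 1.04 for Prmt7, 1.05 for Brd1 and 1.07 for Kdm4c, and of the partner genes 0.72 for Cxxc1, 0.85 for Smyd2, 0.61 for Jmjd6, 1.00 for Yaf2, 0.81 for Rcor3 and 0.52 for Idh2. The shift of the median by construction moves every gene. With the digestive enzymes left out of the total there were 25 rises and 4 falls and a median change of 0.24 (0.23 for all genes). An adjusted p under 0.01 left 6 rises, 4 falls and 7 partner genes. With labelled females alone 9 partner genes were called. Leaving out controls 1 and 3, an alternative chosen after seeing the data, left 2 rises, 2 falls and 3 partner genes, with 796 genes called in all instead of 3475; fewer samples were then fitted. Leaving out each library in turn gave 8 to 11 rises, 6 to 12 falls and 7 to 16 partner genes, a median change of 0.00 to 0.08 and a log2 fold change of Ptf1a between -5.10 and -3.88. Of 22 calls examined singly, 11 were kept with any library left out. With Y-linked transcripts as a covariate 23 of 23 were kept, and without both libraries that held them 20 (both chosen after seeing the data). With a mean of at least 50 normalized counts required, 85 of the 95 genes were tested and 22 calls kept. For single genes over all alternatives, 2017 values stayed on their side of the threshold with the same sign, 151 lost and 68 gained a call with the same sign, and 127 without a call changed sign.

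The replicate number as a block gave 10 rises, 11 falls and 13 partner genes, with 20 of the 23 calls kept. Each control deviated most like the Ptf1a cKO library of its own number, but control 1 only by 0.0391 against 0.0299 for Ptf1a cKO 3. That does not show that the numbers pair the mice. The count models were not run, since whole reads could not be recovered. The reads behind each value cannot be read from the scaled table, so precision rests on 3 mice in each group, and small differences such as those of Ezh2 or Dnmt1 were not detectable beyond the intervals given. Age and genotype cannot be told apart.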
